A study of Drosophila melanogaster with 9 samples.

Results

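The 10 genes described here encode the core of the Dpp pathway, the bone morphogenetic protein (BMP) pathway of Drosophila melanogaster: dpp, tkv, put, sax, Mad, Med, Dad, shn, brk and cv-2. They were taken by gene symbol, and all 10 of 10 were among the 17806 named genes of both deposited count tables. RNA-seq was made from GFP-positive intestinal progenitors that were sorted from dissected gastrointestinal tracts of adult females. It covered 3 libraries labelled swm RNAi, in which the RNA-binding protein Swm was to be knocked down, and 3 controls, titled esgTS and labelled WT. Each of these replicates came from 100 flies and 30000 to 50000 sorted cells. CLIP-seq, which sequences RNA that comes down with a protein, was made from whole dissected intestines labelled WT, as 2 immunoprecipitates on magnetic beads described as SWM-coated (Swm IP) and, as their control, total lysate in a single library (input). The age of the flies, the RNAi construct and the meaning of esgTS are not given in the sources used here.

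Dpp is a secreted ligand that binds a complex of the type I receptors Tkv and Sax with the type II receptor Put. The receptors phosphorylate Mad, which enters the nucleus with its partner Med; with Shn, these Smads repress brk, itself a repressor of Dpp targets, and they activate genes such as Dad, an inhibitory Smad that damps the signal. Cv-2 binds BMPs outside the cell and is known from the formation of wing crossveins. In the adult midgut, Dpp signalling is known for its part in acid-secreting copper cells and in progenitor behaviour, and reported sources of the ligand include visceral muscle, trachea and enterocytes.

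Depth ran from 14627251 to 19399264 counts in the libraries labelled swm RNAi and from 19428033 to 19962224 counts in the controls. Swm IP replicates 1 and 2 had 2451369 and 8497190 counts, and the input had 4615623. Levels are given as CPM, reads of a gene relative to the library size after trimmed-mean (TMM) scaling. The swm transcript stood at 159, 136 and 135 CPM with swm RNAi, and 159, 116 and 157 CPM in the controls. Its log2 fold change was -0.0036 (SE 0.17), so each direction below is that of the libraries labelled swm RNAi, and the knockdown was not visible in this transcript. Controls were the more variable group: the median absolute deviation of a gene from its group mean was 0.151 to 0.163 (log2) in libraries labelled swm RNAi and 0.249 to 0.297 in controls. The 12 progenitor markers summed to 6789 to 8142 CPM with swm RNAi and 6162 to 7879 CPM in controls, among them esg at 1529 to 2152 CPM and 1398 to 1725 CPM. Of the 12, cher alone passed the test and was lower, at 318 to 339 CPM with swm RNAi and 505 to 663 CPM in controls. Its log2 fold change was -0.80 (SE 0.17, edgeR adjusted p = 0.0273). In the input the 12 markers summed to 475 CPM.

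In progenitors the ligand gene was at or near 0 while the rest of the pathway was measured. dpp (2L, 2428372 to 2459823, BDGP6) had 0 counts in all 3 libraries labelled swm RNAi, which allows up to 0.157 to 0.210 CPM at 3 counts per library, and these limits cover counting error only. In controls it had 0, 16 and 0 counts in replicates 1, 2 and 3, and the 16 counts made 0.784 CPM. A single control library therefore held every dpp read of the sorted cells, and the gene was too rare to be tested there. In the whole-intestine input dpp had 64 counts, or 15.8 CPM (exact Poisson 95% interval 12.2 to 20.2). The tables were counted over different parts of the gene and scaled apart, so this pair of levels is set side by side without a test.

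The visceral muscle markers, an 11-gene list, summed to 24.9 to 31.8 CPM with swm RNAi and 35.7 to 39.0 CPM in control progenitors, but to 2313 CPM in the input. Among them, Mhc stood at 1.67 to 3.23 CPM with swm RNAi, 1.33 to 7.36 CPM in controls and 489 CPM in the input. Act57B, a muscle actin, had 0, 66 and 0 counts in control replicates 1, 2 and 3, and 1, 17 and 13 counts with swm RNAi. Control replicate 2 was also the library that held the 16 dpp counts. Its muscle sum of 35.7 CPM was nonetheless the lowest of any control. Like Act57B, the markers Mlc2, Tm2 and wupA had their highest control level in that library, but sls, bt and vn had their lowest. The muscle list as a whole was therefore not higher where dpp was read. The part of muscle in those dpp counts was not tested. These are bulk samples, in which fewer cells of a type and less RNA per cell cannot be told apart.

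The other 9 members were well above the detection limit in progenitors. Per kilobase of exon, Mad was the most abundant member in both groups, at 84.1 ± 11.2 CPM per kb with swm RNAi and 110 ± 10.4 in controls (SD, n = 3 each). It stood above 92.8% of the 8899 genes tested. shn came next, at 40.8 ± 7.28 and 35.8 ± 14.0 CPM per kb. In controls tkv (25.5), put (22.5), sax (19.7), Dad (19.5), brk (16.2), Med (15.7) and cv-2 (12.0 CPM per kb) followed, and every neighbouring pair from shn to cv-2 overlapped in its libraries. Mad stood apart from shn there, and cv-2 from dpp. In the libraries labelled swm RNAi the order after shn was brk (27.3), cv-2 (25.9), put (20.2), tkv (19.8), sax (19.7), Med (16.5) and Dad (13.0 CPM per kb), so brk and cv-2 averaged above the receptors and Dad was the least abundant member other than dpp. Neighbours from shn to sax overlapped in that group. Mad stood apart from shn there too, and sax, Med and Dad each stood apart from the next, which for Dad was dpp.

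**Figure D1:**
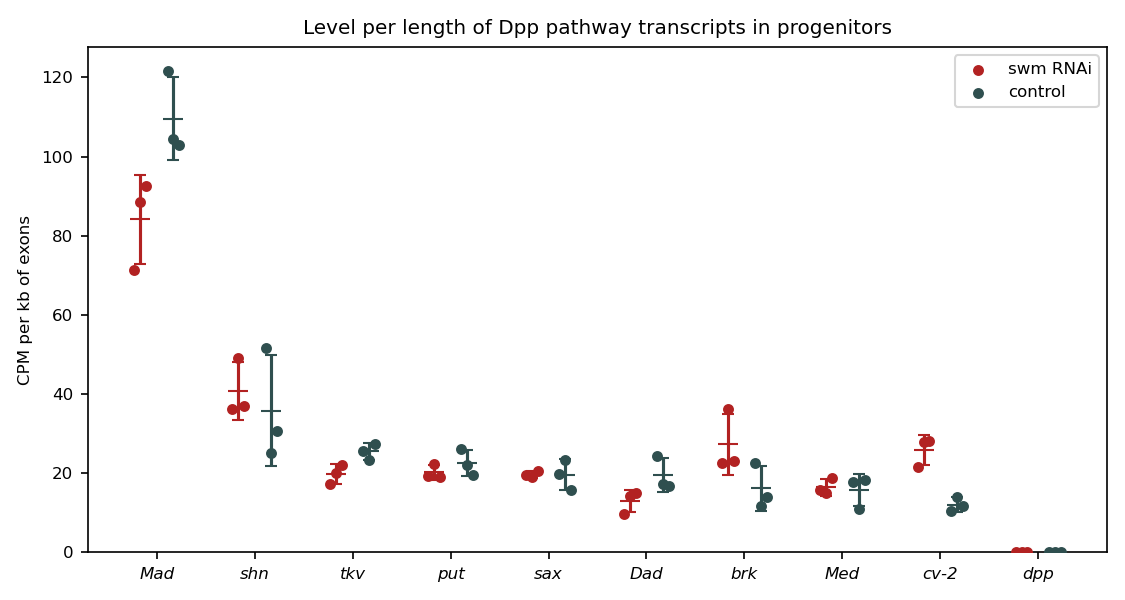
Level per length (TMM-scaled CPM per kb of exon, linear axis from 0) of the 10 genes in progenitors labelled swm RNAi (red) and in controls (dark), one point per library with the mean and SD of 3. Mad stands highest in both groups, the receptors lie between 15.8 and 27.5 CPM per kb in every library, and dpp sits at or next to 0.

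The member that changed was cv-2 (2R, 21355015 to 21379464), the extracellular BMP-binding protein. It had 93.6, 121 and 122 CPM with swm RNAi, against 45.0, 60.7 and 50.7 CPM in the controls. All 3 libraries labelled swm RNAi stood above all controls, and the groups did not overlap. The means were 112 ± 16 CPM and 52.1 ± 7.96 CPM (SD, n = 3 each), a 2.15-fold rise with a log2 fold change of 1.11 (SE 0.18, 95% interval 0.71 to 1.5, edgeR adjusted p = 0.00554). In the authors' deposited table its log2 fold change was 1.07 with an adjusted p of 0.00014. Of the 9 tested members, 1 passed in either direction, against 3.17% of all genes tested (2.34% higher and 0.832% lower).

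**Figure D2:**
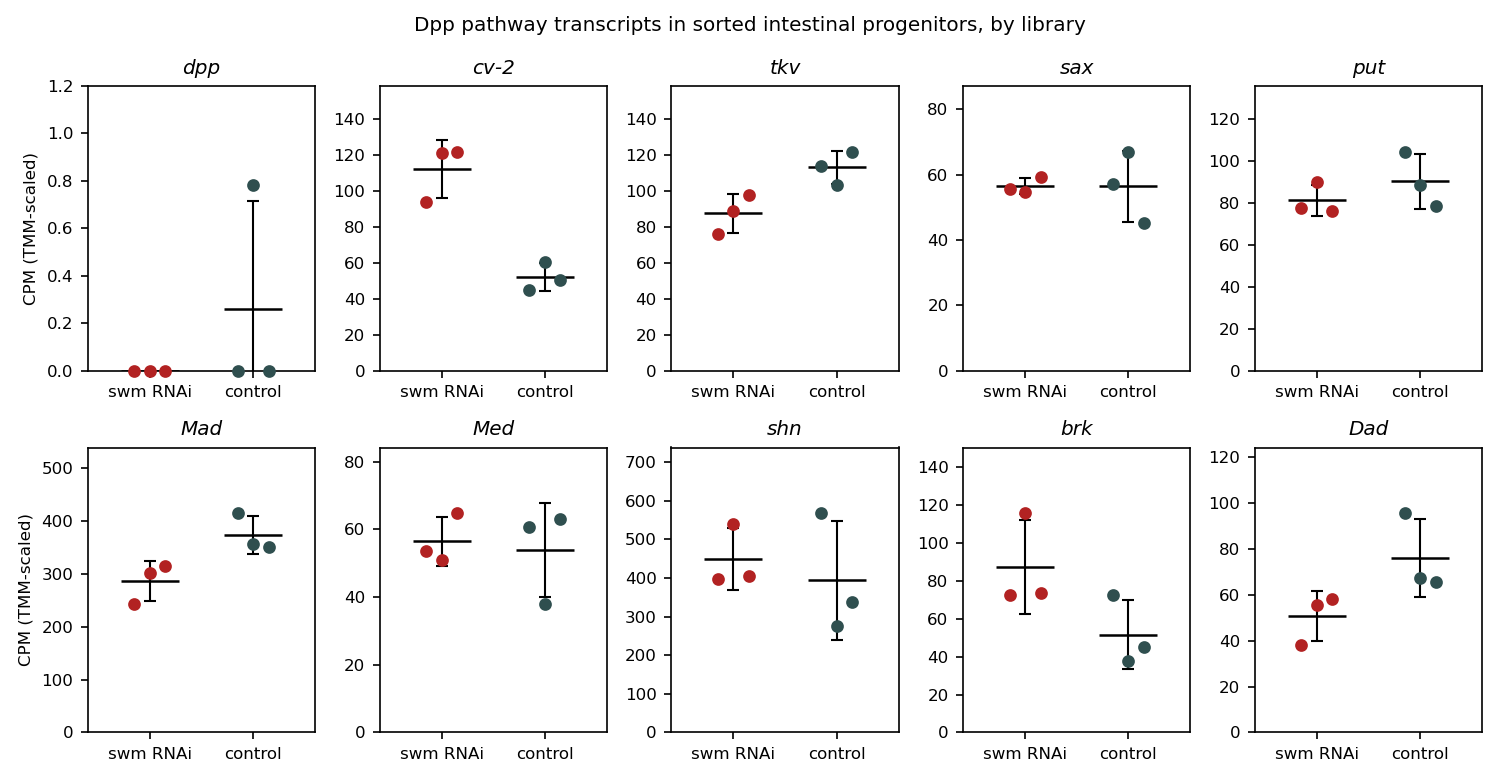
TMM-scaled CPM of each gene in sorted progenitors, with libraries labelled swm RNAi (red, left) and controls (dark, right), one point per library and the mean with SD of 3; each panel has its own linear axis from 0. cv-2 lies at 93.6 to 122 CPM with swm RNAi and 45.0 to 60.7 CPM in controls, while tkv, Mad and Dad lie lower with swm RNAi without overlap.

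At the receptors, the 3 genes were at similar levels in both groups or somewhat lower with swm RNAi, and none passed the test. The type I receptor gene tkv (2L, 5219000 to 5271384) had 76.1, 89.1 and 97.7 CPM with swm RNAi, against 114, 103 and 122 CPM in controls. Every library labelled swm RNAi was below every control, with a log2 fold change of -0.37 (SE 0.16, 95% interval -0.72 to -0.016, edgeR adjusted p = 0.360). The other type I receptor gene, sax, had 55.7, 54.7 and 59.3 CPM with swm RNAi and 57.0, 67.0 and 45.1 CPM in controls, with a 95% interval of -0.40 to 0.41 for its log2 fold change. put, the type II receptor gene, had 77.7, 89.9 and 76.2 CPM with swm RNAi and 104, 88.4 and 78.4 CPM in controls (log2 fold change -0.15, SE 0.16, interval -0.51 to 0.21). For sax and put the groups overlapped.

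Of the Smads, Mad (2L, 3146056 to 3159643), the Smad that the Dpp receptors phosphorylate, had 244, 302 and 316 CPM with swm RNAi, against 415, 356 and 351 CPM in controls. The groups did not overlap, and the log2 fold change of -0.38 (SE 0.18, 95% interval -0.77 to 0.0040) did not pass the test (edgeR adjusted p = 0.405). Med, the shared partner Smad, had 53.7, 51.1 and 64.8 CPM with swm RNAi and 60.7, 37.8 and 63.0 CPM in controls, with a log2 fold change of 0.069 (SE 0.22) that was -0.14 without control replicate 2.

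The inhibitory Smad gene Dad (3R, 17054007 to 17070408), which the pathway is known to activate, had 38.2, 55.8 and 58.2 CPM with swm RNAi, against 95.6, 67.2 and 65.6 CPM in the controls. Every library labelled swm RNAi lay below every control. The means were 50.7 ± 10.9 CPM and 76.1 ± 16.9 CPM (SD, n = 3 each), with a log2 fold change of -0.59 (SE 0.22, 95% interval -1.06 to -0.11) that did not pass over all genes (edgeR adjusted p = 0.245). brk (X, 7307939 to 7311132), which the pathway is known to repress, had 72.4, 116 and 73.7 CPM with swm RNAi, against 72.5, 37.6 and 44.9 CPM in controls. Here control replicate 1 stood among the libraries labelled swm RNAi, so the groups overlapped, and the log2 fold change of 0.76 (SE 0.27, 95% interval 0.15 to 1.36) did not pass (edgeR adjusted p = 0.239). Without control replicate 1 brk passed, at 1.07 (adjusted p = 0.0235).

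The zinc finger gene shn, whose protein joins the Smads at repressed genes, had 398, 541 and 406 CPM with swm RNAi and 568, 276 and 338 CPM in controls. Its log2 fold change was 0.19 (SE 0.26), and -0.022 without control replicate 2. Of the 9 tested members, 4 had groups that did not overlap, cv-2 upward and tkv, Mad and Dad downward; over all genes tested, groups did not overlap upward for 12.3%, downward for 7.94% and either way for 20.2%. The members with an unadjusted p below 0.05 numbered 4 of 9, namely cv-2, brk, Dad and tkv, against 12.4% of all genes. The median log2 fold change of the 9 members was 0.0055, beside 0.033 over all genes tested.

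Across the 6 progenitor libraries, the genes whose log2 CPM followed Dad most closely among 6676 compared were Mad (Pearson r = 0.990), px (0.989) and CAP (0.985). A value over 0.95 was reached by 21 genes. The points share their libraries and the difference between the groups, so these are descriptions. CAP, here in a list of 5 copper cell markers, had 322, 408 and 419 CPM with swm RNAi and 610, 440 and 434 CPM in controls. In the whole-intestine input, which was scaled apart, CAP had 328 CPM, so its level was not shown to be one of copper cells alone.

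Those 5 markers summed to 450 to 582 CPM with swm RNAi and 602 to 819 CPM in controls, with none of them at 0, and CAP made up most of each sum. CAP and dve were lower with swm RNAi without overlap, while lab, Ptx1 and Vha100-4 overlapped between the groups. Of the 5, dve, a homeodomain factor of the midgut, alone passed and fell by 1.04 on the log2 scale (SE 0.24, edgeR adjusted p = 0.0437). lab, a homeotic gene that Dpp is known to activate in the embryonic midgut and a marker of copper cells, had 12.2 to 23.6 CPM with swm RNAi and 18.8 to 29.4 CPM in controls, and did not pass. The 14 enterocyte markers summed to 1010 to 2479 CPM with swm RNAi and 636 to 949 CPM in controls, and none of the 12 tested passed. The digestive protease genes alphaTry, betaTry, Jon65Aiv and yip7 carried this difference, each higher with swm RNAi without overlap. Myo31DF and Tsp2A went the other way without overlap, Myo31DF at 239 to 259 CPM with swm RNAi and 282 to 330 CPM in controls, so the list did not move as one. nub, which defines enterocytes, stood at 1.67 to 6.19 and 0.147 to 4.55 CPM, and Myo81F was at 0 in all 6 libraries. The part of these cell types in the values of Dad, Mad, tkv and cv-2 was not tested.

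Among 42 other genes of the pathway and of the related activin branch, 27 were tested in progenitors. The list was chosen with earlier results of these data known. Of the 27, 2 rose and 1 fell, beside 2.34% and 0.832% of all genes tested, with a median log2 fold change of 0.15. Of the 2 genes called higher, the larger rise in CPM was that of magu, also known as pentagone. This gene encodes a secreted protein that widens the reach of Dpp in the wing disc. It had 58.5, 56.2 and 54.7 CPM with swm RNAi, against 3.42, 5.54 and 14.1 CPM in the controls. All libraries labelled swm RNAi lay close together and above every control (log2 fold change 2.88, SE 0.47, edgeR adjusted p = 0.0148). Without replicate 1 or 2 of swm RNAi its adjusted p was 0.0582 or 0.0512.

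bi, or optomotor-blind, a T-box factor that Dpp is known to activate in the wing, had 5.89, 9.82 and 5.85 CPM with swm RNAi, against 0, 0.196 and 0.442 CPM in controls. Those controls held 0, 4 and 9 counts. The log2 fold change was 5.03 (SE 1.04, edgeR adjusted p = 0.0230), and the adjusted p was 0.0658 when control replicate 2 was left out and 0.0842, 0.189 and 0.0820 when swm RNAi replicate 1, 2 or 3 was. The span of bi lies wholly inside lncRNA:CR32773 on the opposite strand, which had 0 to 4 counts in each progenitor library. fuss, of the Ski/Sno family of Smad corepressors, fell to 0.421, 0.731 and 0.0688 CPM with swm RNAi, against 14.7, 5.78 and 6.43 CPM in controls (log2 fold change -4.41, SE 0.82, edgeR adjusted p = 0.0136). Leaving out replicate 1 of the control or of swm RNAi gave an adjusted p of 0.0672 or 0.0527.

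The remaining pathway genes did not pass. The BMP ligand gene gbb was present in progenitors, at 54.6 ± 2.25 CPM with swm RNAi and 58.9 ± 6.10 CPM in controls (SD, n = 3 each; log2 fold change -0.11, SE 0.16). myo, an activin-type ligand, had a log2 fold change of 0.15 (SE 0.27). Of the glypicans, which carry Dpp at the cell surface, dally stood at -0.20 (SE 0.25) and dlp at -0.95 (SE 0.28, edgeR adjusted p = 0.127). dlp had 16.6, 20.8 and 33.6 CPM with swm RNAi, against 46.2, 34.5 and 55.9 CPM in controls, without overlap. The type II receptor gene wit had 4.21, 2.25 and 4.20 CPM with swm RNAi, against 9.91, 7.69 and 17.5 CPM in controls, also without overlap (log2 fold change -1.72, SE 0.47, adjusted p = 0.0903). The activin-type receptor gene babo stood at 0.075 (SE 0.23), the corepressor gene CtBP at 0.48 (SE 0.33), the coactivator gene nej at 0.19 (SE 0.57) and the target emc at 0.42 (SE 0.20). Sara, Smurf and salr were higher with swm RNAi without overlap. Sara had 71.2 to 80.9 CPM against 46.1 to 68.6 CPM in controls, and Smurf 171 to 190 CPM against 120 to 148 CPM. The rare salr had 0.627 to 1.61 CPM against 0 to 0.511 CPM. Over all genes tested, 12.3% were higher and 7.94% lower without overlap.

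**Figure D3:**
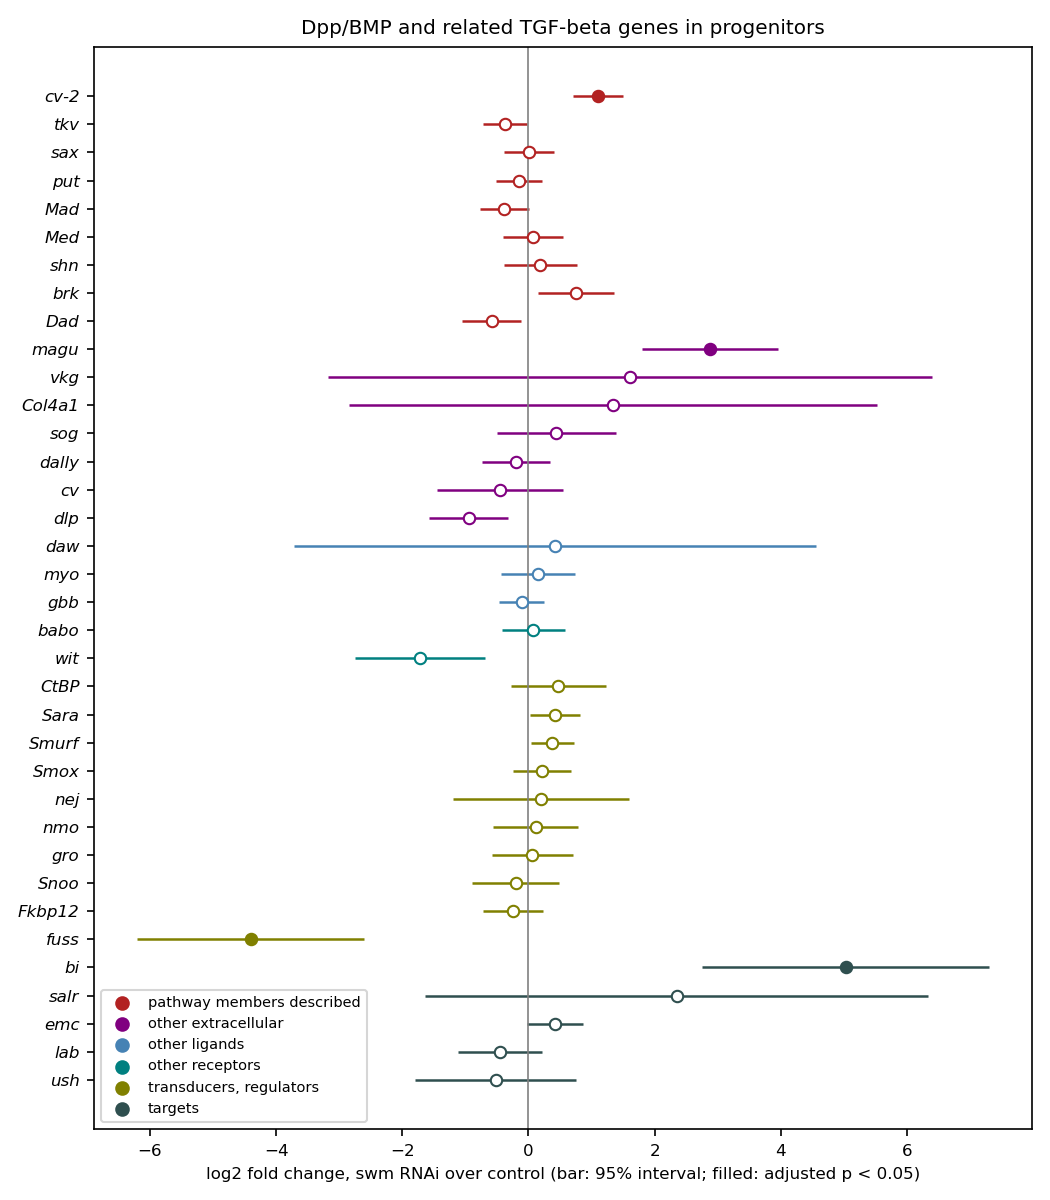
Log2 fold change of swm RNAi over control for the 9 tested members (red) and 27 other tested pathway genes by role, with 95% intervals; filled points passed an edgeR adjusted p below 0.05. cv-2, magu and bi lie to the right at 1.11, 2.88 and 5.03, and fuss to the left at -4.41.

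The Swm immunoprecipitates asked which of these RNAs came down with Swm from whole intestines. Of the 9 members with counts, dpp, cv-2 and shn were higher in the IP than in the input and none was lower, against 9.27% of 8375 genes tested that were higher and 8.97% that were lower (18.2% either way). This fit has 1 residual degree of freedom and 1 input, and no mock immunoprecipitate was analysed here. dpp had 34.9 and 101 CPM in Swm IP replicates 1 and 2, against 15.8 CPM in the input (log2 ratio 2.13, SE 0.58, edgeR adjusted p = 0.0219). The IP libraries differed, with log2 ratios to the input of 1.12 and 2.65, and the call was lost with unscaled library sizes (adjusted p = 0.107) and with a stricter filter on low counts (0.0903). cv-2 had 105 and 155 CPM in the IP, against 56.3 CPM in the input (log2 ratio 1.21, SE 0.31, adjusted p = 0.00187). shn had 1592 and 1277 CPM in the IP, against 697 CPM in the input (log2 ratio 1.04, SE 0.30, adjusted p = 0.00707). In the authors' deposited table the log2 ratios were 2.15 for dpp, 1.25 for cv-2 and 1.08 for shn, with adjusted p of 0.00918, 0.0283 and 0.0038.

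The visceral muscle markers moved with the IP library in which dpp was highest. They summed to 2965 and 12000 CPM in Swm IP replicates 1 and 2 and 2313 CPM in the input, with 0 of the 11 at 0 counts. Of the replicate 2 sum, sls, bt and Mhc had 5311, 2994 and 2298 CPM. In replicate 1, Mhc, sls, bt and vn were above the input, as dpp was, and the other muscle markers were below it. Mhc, sls, bt and vn span 22201 to 75931 bases and dpp 31452 bases, while the other muscle markers span 2411 to 11355 bases. The IP ratio also followed gene span, as given below, so this split does not set muscle apart from length. Highest in replicate 2 were 10 of the 11, beside 5 of 6 trachea, 3 of 6 hemocyte, 5 of 12 progenitor and 2 of 5 copper cell markers. No enterocyte or enteroendocrine marker was highest there. The share of all genes tested that were highest in replicate 2 was not counted, so these counts have no background beside them. None of the muscle markers but vn, a growth factor gene of the muscle, passed the test. Trachea markers, another 6-gene list, summed to 555 and 596 CPM in the IP and 291 CPM in the input with none at 0, but sty alone gave 518 and 511 CPM of the IP sums and 280 CPM of the input. sty also stood at 649.5 to 854 CPM with swm RNAi and 158 to 1020 CPM in control progenitors, so the sum is not one of trachea alone. btl, the tracheal FGF receptor gene, had 15 and 20.1 CPM in the IP and 3.71 CPM in the input, and trh, a tracheal regulator, 12.7 and 38.1 CPM and 2.72 CPM. In progenitors btl stood at 22.8 to 39.8 CPM with swm RNAi and 17.4 to 43.8 CPM in controls, so btl too was not of trachea alone. No progenitor library held more than 0.366 CPM of trh. Of the list, sty, btl and trh passed as higher in the IP, beside 9.27% of all genes tested, and serp, verm and vvl did not. Of these, sty and trh span 23783 and 26110 bases, within the longest decile of genes, where 42.6% were called higher. btl spans 7458 bases. The part of these tissues in the dpp ratio was not tested.

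**Figure D4:**
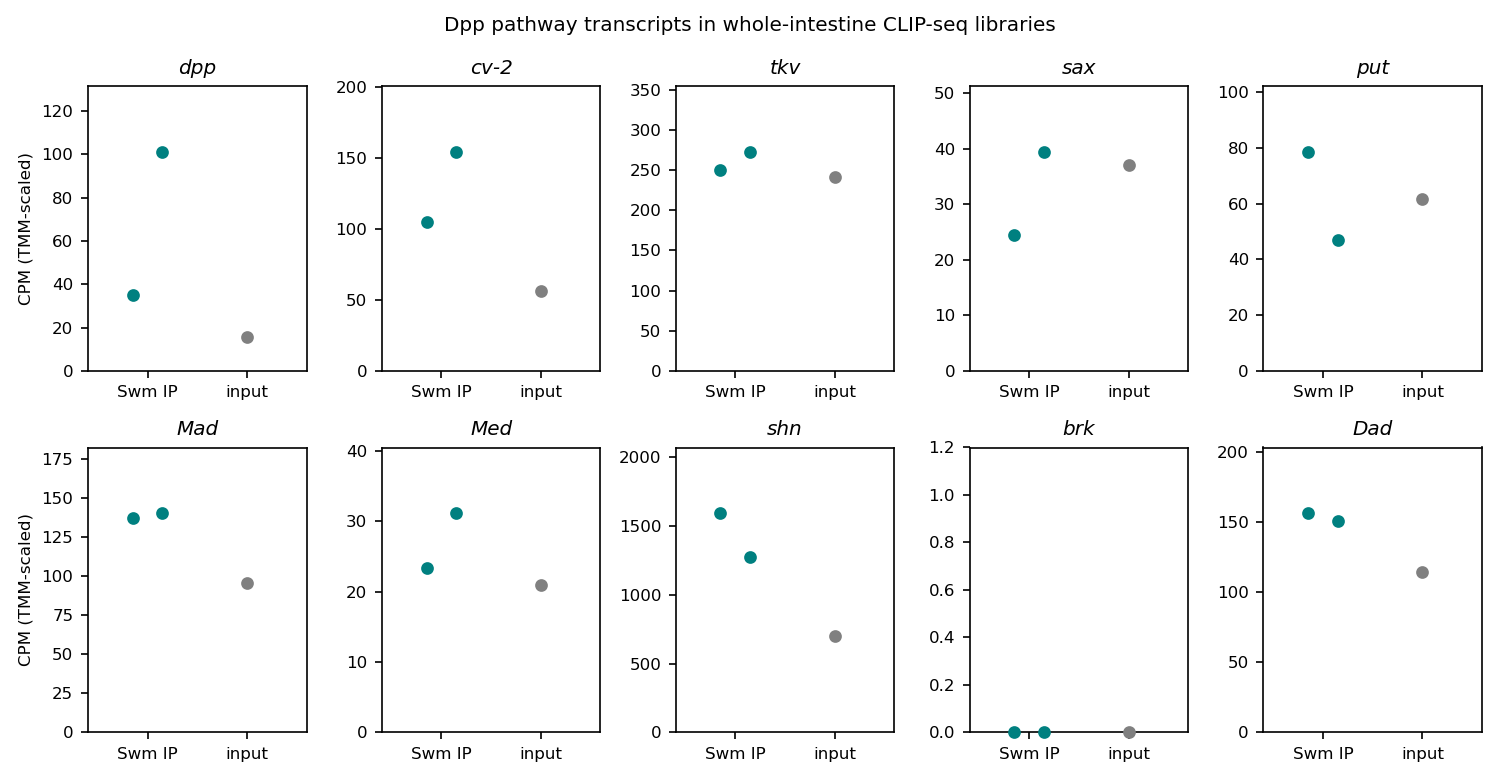
TMM-scaled CPM of each gene in the 2 Swm IP libraries (green, left, replicate 1 then 2) and the single input (grey, right), each panel on its own linear axis from 0. dpp, cv-2 and shn lie above the input in both IP libraries, tkv lies at 249 and 273 CPM beside 241 CPM, and brk is at 0 in all 3 libraries.

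The other 6 genes with counts were not called, except that Mad passed with unscaled library sizes (0.82, adjusted p = 0.0395). tkv had 249 and 273 CPM in the IP and 241 CPM in the input (log2 ratio 0.12, SE 0.25), the receptor genes sax and put stood at -0.19 (SE 0.42) and 0.017 (SE 0.34), and the Smad genes Mad, Med and Dad at 0.54 (SE 0.29), 0.39 (SE 0.49) and 0.42 (SE 0.28). For put and sax, the IP libraries lay on either side of the input. By a rule of size without a test, only dpp of the 9 exceeded the input at least 2-fold in each IP library, against 11.6% of genes tested, and none of the 9 was at least 2-fold lower, against 10.3%.

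The IP ratio followed the span of a gene, which is the length over which these libraries were counted. dpp, cv-2, shn and tkv span 31452, 24450, 58309 and 52385 bases, 81.1% to 91.5% of them outside exons, and all 4 are in the longest decile of genes. There the median log2 ratio was 1.19 and 42.6% of genes were called higher, against -1.18 and 1.31% in the shortest decile. Within the longest decile, cv-2 was at the 51.1 percentile, shn at 43.1, dpp at 75.9 and tkv at 5.25. With the trend on span removed, dpp stood at 0.98 (adjusted p = 0.138), cv-2 at 0.15 (0.872) and shn at -0.36 (0.454), and none was called higher. tkv then stood at -1.23 and was called lower (edgeR adjusted p = 2.24e-05), where 1.70% of all genes were higher and 6.69% lower.

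**Figure D5:**
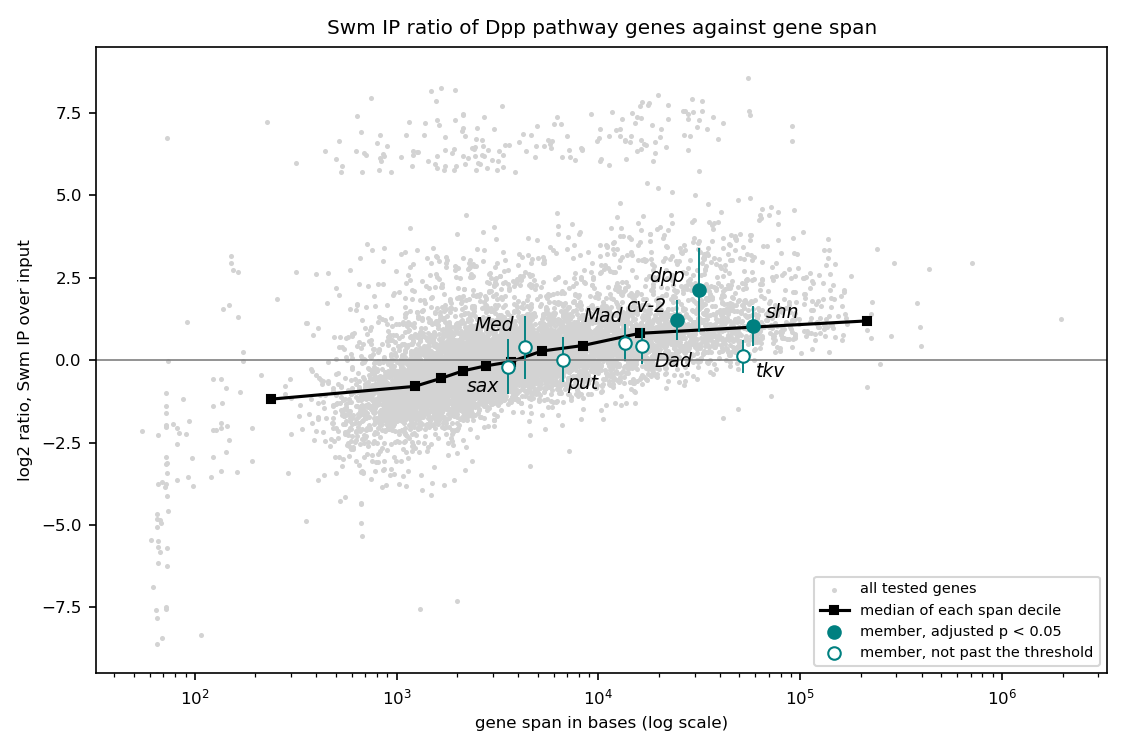
Log2 ratio of Swm IP over input against gene span (log axis) for all tested genes (grey), with the median of each span decile (black) and the 9 members with 95% intervals (green; filled, adjusted p below 0.05). The separate grey band at the top holds genes with almost no input reads; cv-2 and shn lie close to the median line, dpp above it and tkv below it.

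brk had 0 counts in both IP libraries and in the input, although it had 767 to 2216 counts in each progenitor library. Its whole span lies inside CG1677 and lncRNA:CR44357, both on the opposite strand. Of 435 genes with at least 1000 progenitor reads whose span is wholly covered by other counted genes, 433 had 0 counts in all 3 CLIP-seq libraries, which is 99.5%. Where only opposite-strand genes covered the span, this was so for 185 of 186 genes. Among 2831 genes that share no base with another counted gene, 16 were at 0, or 0.565%. The 0 of brk is therefore shared by nearly every gene in its position, and its binding by Swm was not measurable in this table. The targets bi and emc, also wholly covered, were at 0 in these libraries too. Other members shared part of their span with other counted genes: Med 37.4%, with CycG, and shn 22.5%, with CG13229, both on the opposite strand. tkv shared 16.4%, with Cyp4ac1, Cyp4ac2, Cyp4ac3 and others on the opposite strand and a tRNA gene on its own strand. dpp, sax, put, Mad, Dad and cv-2 shared none.

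Of 32 other pathway genes tested in the IP, 10 were higher and 2 lower, beside 9.27% and 8.97% of all genes tested, with a median log2 ratio of 0.87 beside 0.0036 over all genes. Outside the cell, the collagen IV genes vkg and Col4a1, whose products bind Dpp, stood at 3.58 (SE 0.94) and 2.64 (SE 0.83), and tok, a protease that frees BMPs, at 2.58 (SE 0.89). vkg had 25 and 181 counts in the IP and 5 in the input, and at most 20 counts in a progenitor library. dlp stood at 0.88 (SE 0.33). Inside the cell, the higher genes were Smox (0.93, SE 0.26), the activin-branch Smad, Smurf (0.74, SE 0.26), a ubiquitin ligase for Smads, nmo (1.49, SE 0.33), a kinase that acts on Mad, Snoo (1.23, SE 0.27), a Smad corepressor, and nej (1.46, SE 0.29), a coactivator. The target ush stood at 1.17 (SE 0.34). The ligand gene daw was lower, at -1.01 (SE 0.32), with 52.2 and 45.3 CPM in the IP against 98.1 CPM in the input, as was Fkbp12, which encodes a small protein known in mammals to bind type I receptors, at -0.89 (SE 0.30). With the span trend removed vkg (2.73) and daw (-1.41) were called, and the other 10 were not. Both lower calls were lost by DESeq2 (adjusted p = 0.132 for daw and 0.197 for Fkbp12) and with unscaled library sizes (0.120 and 0.197). DESeq2 also lost tok (0.107), dlp (0.144), Smurf (0.0894) and Col4a1 (0.0678). Without a low-count filter dlp (0.0703) and Smurf (0.0545) were lost, and with the stricter one tok (0.0555).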

How the data were processed

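The measurements are whole-number read counts that the authors deposited in 2 tables of 17807 rows; per the file headers each also gives a gene length, which matched the exons of the 10 members in the RNA-seq table and their whole span in the CLIP-seq table. Tools listed in the submitters' processing notes are featureCounts (Subread 2.0.0), STAR 2.7.3a, cutadapt 2.9, DESeq2 and SAMtools 1.10; build, annotation and strand are not given in the sources used here. From the authors' deposited tables of comparisons only log2 fold changes and adjusted p-values were copied; 9 per-sample columns there were not used. A row without a gene name, with at most 5 counts in a library, was left out.

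Each count table was fitted whole with edgeR 4.0.16 (R 4.3.3), by a robust quasi-likelihood test after TMM scaling and filterByExpr at a minimum count of 10, with Benjamini-Hochberg adjustment and a threshold of 0.05. SE is the log2 fold change over the root of F. Log2 ratios of single IP libraries used a prior count of 2. The fits were also run on simulated counts that gave every gene and group the same spread, although controls varied more in these data. That run was judged on the size of the recovered changes, and no rate of false calls is drawn from it. Whether replicates were independent crosses is not stated; p-values cover only the variation among these samples, possibly technical. Coordinates and overlaps are from Ensembl BDGP6; 95.6% of symbols matched, and spans equalled the deposited length for all 10 members. Marker sums are of scaled CPM.

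Named genes were all members and swm, other pathway genes past the threshold or the most abundant 2 of each role, defining markers, and the 3 genes most like Dad. Members, lists and tests were chosen with earlier results of these data known. Alternatives were DESeq2 1.42.0, RLE factors, unscaled library sizes, other filters, a replicate block, the robust option off, libraries left out, a prior count of 0.5 and removal of the trend on gene span (loess, span 0.3).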

Additional observations from a re-analysis of the deposited data

How the results depend on the processing

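cv-2 stayed called as higher with swm RNAi under all 13 alternatives run for it, with log2 fold changes of 0.99 to 1.22 and adjusted p of 1.6e-06 to 0.0368. Dad, Mad and tkv were lower and not called under the same 13. The count of members called was 1, and 2 without a low-count filter and without control replicate 1, where brk joined (leaving out 1 library gave 1 to 2). Genes called over the whole RNA-seq table (282; 208 higher, 74 lower) were 469 (320 and 149) by DESeq2, 527 (351 and 176) without a filter, and 141 to 392 (114 to 276 and 24 to 116) when 1 library was left out, with 141, 146 and 161 without swm RNAi replicate 1, 2 and 3. No pairing by replicate number was visible in the values: deviations of same-numbered libraries correlated at -0.063, -0.049 and 0.0040. With 3 libraries per group this cannot show whether the samples were collected in pairs. A replicate block gave 287 calls and 1 member, and changed no call of a member. No paired analysis was possible for the IP because the groups share only 1 replicate number.

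In the IP, 1527 genes were called (776 higher, 751 lower). DESeq2 gave 932 (397 lower). Unscaled library sizes put the median log2 ratio over all genes at 0.29 and gave 1114 higher and 425 lower, 494 genes at least 2-fold lower in both libraries (865 otherwise) and 3 members at least 2-fold higher. With the stricter filter 510 genes, against 972, were at least 2-fold higher. Leaving out an IP library drops a condition of that rule and gave 1444 to 1525 higher, 1311 to 1702 lower, and 2 members; the edgeR test then had no residual degree of freedom and was not run. With the span trend removed 702 genes were called (142 higher), and 1 member, tkv. dpp lost its call with library sizes alone (2.42, adjusted p = 0.107), the stricter filter (2.13, 0.0903) and the trend removed, while Mad gained one with library sizes alone (0.82, 0.0395).

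Signs turned for small effects. In progenitors sax (0.0055) was -0.026 with other size factors and by DESeq2, -0.059 with library sizes alone, -0.0041 without a filter, -0.000298 with the stricter one and -0.13 to 0.14 when 1 library was left out; then Med was -0.14 to 0.20 and shn -0.022 to 0.53. In the IP sax was 0.094 with library sizes alone and put -0.015 without a filter. With the span trend removed put was -0.34, Dad -0.45, Mad -0.23, shn -0.36, tkv -1.23, dlp -0.37, Snoo -0.32, ush -0.25 and Fkbp12 0.042. Beyond the settings that define them, the causes were not tested.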

Other observations

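Ubx, a homeotic gene linked to Dpp in the embryonic midgut, was singled out after its values were seen. It had 53 and 989 counts in Swm IP replicates 1 and 2, against 15 counts in the input, or 20.3 and 108 CPM against 3.71 CPM. Its log2 ratio was 4.14 (SE 2.20) and did not pass (edgeR adjusted p = 0.472). In progenitors it had 7 counts in swm RNAi replicate 2 and 0 in the other 5 libraries.

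Of the muscle list, sls and bt, which encode giant proteins of the sarcomere, were named after their values were seen too. sls had 1320 and 5311 CPM in Swm IP replicates 1 and 2, against 427 CPM in the input. bt had 524 and 2994 CPM in the IP, against 392 CPM in the input, and neither gene passed the test.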
